A study of Mus musculus with 4 samples.

Results

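TGF-beta superfamily signalling was read in sorted mouse skeletal stem cells through 48 genes, taken by symbol from a count table of 55487 genes. The set holds 16 ligands, 12 receptors and co-receptors, 8 Smads, 4 Id genes, 4 latent TGF-beta binding proteins, the matrix protein gene Tgfbi, the corepressors Ski and Skil and the ubiquitin ligase gene Smurf1. Secreted antagonists were left out of the set. Each of the 48 symbols matched 1 row of the table, and each gene had counts in every library and passed the filter on low counts.

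The cells came from ovariectomized wild-type mice (2 libraries) and from sham-operated wild-type mice (2 libraries). Every library carries the time 8 weeks, and whether this is an age or a time after surgery is not given in the sources used here. Without ovaries, mice lose most circulating oestrogen, and the operation is widely used to model bone loss after menopause. Metaphyses of long bones were digested with collagenase, the cells were sorted by surface antigens, and bulk RNA was sequenced. The labels do not say whether the libraries of a group came from separate animals, so the p-values cover no more than library-to-library spread, and that spread may be technical.

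The libraries held 23228031 and 18291436 counts after ovariectomy and 22935095 and 23721078 counts after sham surgery. The 48 genes took 0.402% and 0.412% of them after ovariectomy and 0.343% and 0.366% after sham surgery. Of the sort antigens checked, Cd200 had 173 and 155 CPM after ovariectomy and 237 and 305 CPM after sham surgery. Itgav (CD51) had 69.0 and 72.0 CPM against 70.4 and 67.3 CPM. Eng (CD105), a member of the set, had 75.2 and 83.1 CPM against 21.6 and 52.1 CPM (edgeR adjusted p = 0.150). CPM are counts divided by library size and put on a common total, scaled by the trimmed mean of M values (TMM). Of 7 skeletal stem and stromal markers, 4 were called higher and 1 (Cd200) lower (2.98% and 1.20% of all genes tested). Blood cell transcripts were present, with summed erythroid markers at 118 and 155 CPM after ovariectomy and 37.9 and 21.9 CPM after sham surgery. Of 6 erythroid markers tested 3 were called higher (2.98% of all genes tested). Car1 alone had 51.3 and 87.1 CPM against 0.134 and 0.712 CPM, and Alas2 overlapped between the groups. Macrophage and monocyte markers summed to 107 and 146 CPM against 75.4 and 82.5 CPM, with 0 of 7 called and Ptprc overlapping. Granulocyte markers summed to 145 and 211 CPM against 91.4 and 44.4 CPM. Of the 6 granulocyte markers 2 were called higher (2.98% of all genes tested). The groups overlapped for 3 of the 6, and did not overlap for 49.3% of all genes tested. Mpo alone had 58.3 and 110 CPM after ovariectomy and 3.39 and 0.49 CPM after sham surgery. Lymphocyte markers (1 of 4 tested called higher) summed to 8.45 and 21.4 CPM against 2.41 and 2.36 CPM. Megakaryocyte and platelet markers (0 of 3 tested called) summed to 7.06 and 7.48 CPM against 2.85 and 12.3 CPM. The part of these blood cell transcripts in the results below was not tested. Cartilage and bone matrix genes were abundant in every library. Col2a1, the main cartilage collagen, had 40300 and 36900 CPM after ovariectomy and 73200 and 65400 CPM after sham surgery. In bulk samples, fewer cells of a type and less RNA per cell cannot be told apart.

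The superfamily works through secreted dimers that bring type 1 and type 2 serine/threonine kinase receptors together. TGF-beta and activin receptors pass the signal to Smad2 and Smad3, and BMP receptors to Smad1, Smad5 and Smad9. Both routes share Smad4, and Smad6 and Smad7 hold them back. TGF-beta is secreted in a latent complex with binding proteins that tie it to the matrix, from where it must be released. In bone, TGF-beta stored in matrix is known for recruiting progenitors during remodelling, and BMPs for driving cartilage and bone formation.

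Of the 48 genes, 4 rose and 2 fell after ovariectomy at an adjusted p under 0.05 (edgeR quasi-likelihood test, Benjamini-Hochberg over 17120 genes tested). Ltbp4, Ltbp1, Inhba and Smurf1 rose, and Gdf10 and Bmp8a fell. That is 12.5% of the set, where 4.18% of all genes tested were called (2.98% higher and 1.20% lower). The set was chosen with earlier results of these data known, so its share is a description and no independent support. Where the mean reached 5 CPM or more, the calls took 14.3% of members (6 of 42) and 6.34% of all genes. At an unadjusted p under 0.05 were 22 of the 48 members and 3154 of all 17120 genes tested (edgeR). The median log2 fold change was 0.21 over the set and -0.02 over all genes tested. Both ovariectomy libraries lay above both sham libraries for 19 members and below them for 13, where 25.5% and 23.9% of all genes tested lay so. The groups did not overlap for 66.7% of the set, against 49.3% of all genes tested. The 6 calls were made in each of 9 other settings that used all libraries. RLE size factors, upper-quartile scaling and a GC and length offset called these 6 alone, beside 4.2%, 4.24% and 4.46% of all genes. More members were called higher in the other 6 settings, where the share of all genes called was 5.1% with library totals alone, 4.59% with no filter, 10.9% with a mean of 5 CPM or more, 8.21% by DESeq2, 5.53% by limma-voom and 6.27% with the replicate number as a block. Without sham 1 the edgeR test called 7 members higher and 4 lower (6.79% of all genes), and without sham 2 it called 12 higher and 3 lower (9.54%). Without ovariectomy 1 or without ovariectomy 2, where the sham pair alone gives the spread within a group and the lone library is assumed to vary alike, edgeR called 0 of all genes (1788 and 1618 at an unadjusted p under 0.05). It thus called 0 members (15 and 14 at an unadjusted p under 0.05). All edgeR calls given here were lost in those fits, so each call needed both ovariectomy libraries. As every gene lost its call, the loss does not set any gene apart from another. The log2 fold changes without ovariectomy 1 and without ovariectomy 2 were 2.02 and 1.81 for Ltbp4, 1.02 and 0.98 for Ltbp1, 1.57 and 1.46 for Inhba, 2.18 and 1.59 for Smurf1, -1.03 and -0.84 for Gdf10, and -0.89 and -0.62 for Bmp8a.

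**Figure D1:**
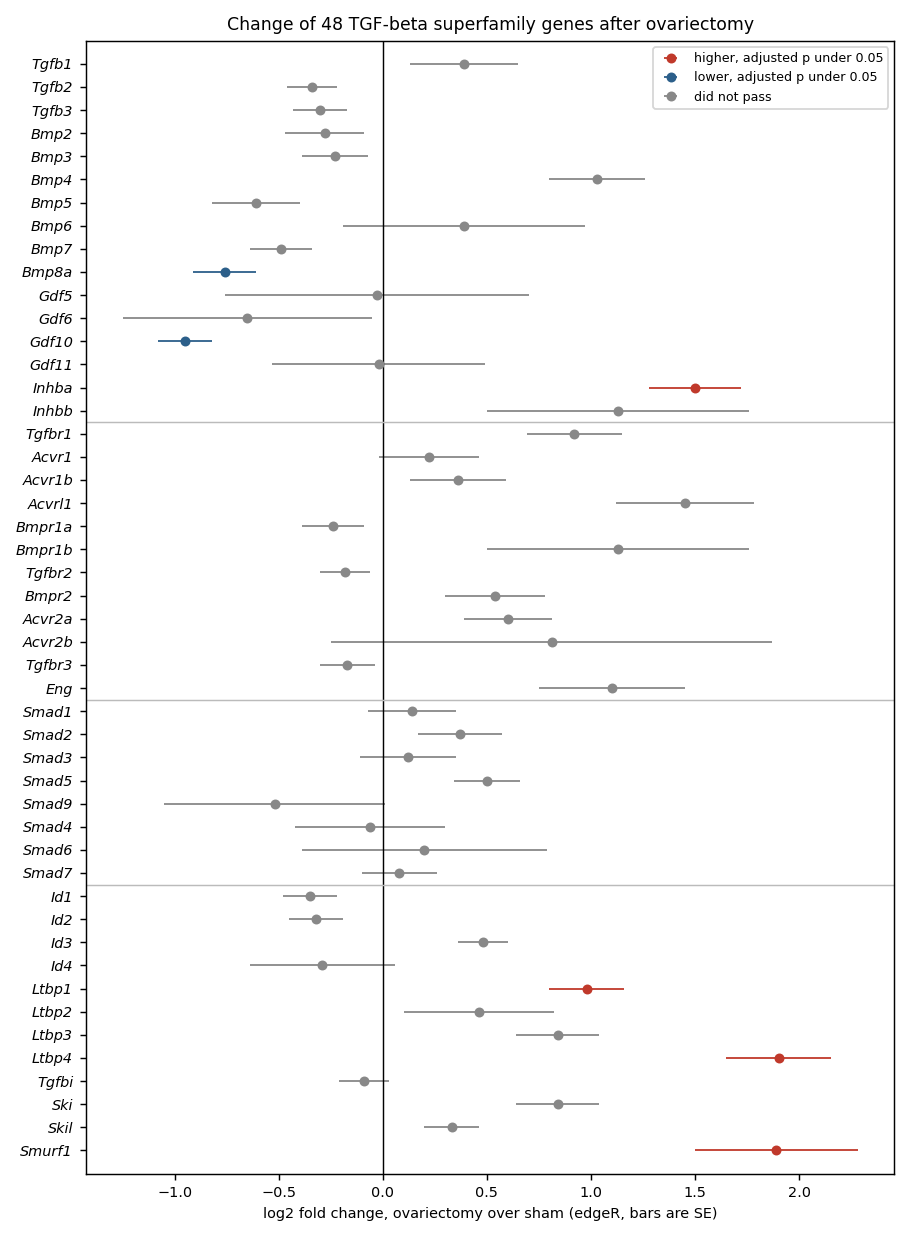
Log2 fold change of each of the 48 genes, ovariectomy over sham, on the x axis, with bars for the SE. Red points rose (Ltbp4, Ltbp1, Inhba, Smurf1), blue points fell (Gdf10, Bmp8a) and grey points did not pass. Grey lines part ligands, receptors, Smads and the other members.

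Among the latent TGF-beta binding proteins, Ltbp4 and Ltbp1 rose. Ltbp4, which binds latent TGF-beta1 and is needed for elastic fibre assembly, had 163 and 188 CPM after ovariectomy and 34.4 and 59.3 CPM after sham surgery. Both ovariectomy libraries stood well above both sham libraries. The rise was 3.74-fold (log2 fold change 1.90 ± 0.25 SE, edgeR adjusted p = 0.00838, n = 2 libraries a group), and 1.57 to 2.36 on the log2 scale with 1 library left out. Ltbp4 (ENSMUSG00000040488) lies on chromosome 7, 27305136 to 27337692, minus strand (GRCm38). Ltbp1, the founding member of the family, which anchors latent TGF-beta to fibronectin and fibrillin, had 84.2 and 86.1 CPM after ovariectomy and 36.3 and 49.8 CPM after sham surgery. It rose 1.98-fold (log2 fold change 0.98 ± 0.18 SE, edgeR adjusted p = 0.0258).

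Ltbp3, known for its part in bone and tooth growth, had 56.4 and 66.4 CPM after ovariectomy and 28.7 and 40.0 CPM after sham surgery. The groups did not overlap, but the difference did not pass (log2 fold change 0.84 ± 0.20 SE, edgeR adjusted p = 0.0648). Ltbp3 was called in 6 of the 9 other settings, among them the DESeq2 test (adjusted p = 0.00295) and limma-voom (0.0305). Ltbp2, the family member that does not bind latent TGF-beta, had 67.5 and 92.8 CPM after ovariectomy and 34.6 and 81.5 CPM after sham surgery. Its groups overlapped, with sham 1 alone standing low. Per kilobase of exon, Ltbp4 was the most abundant of the 4 after ovariectomy, at 27.1 RPKM (TMM-scaled CPM divided by exon length in kilobases) against 9.79 for Ltbp2, 7.96 for Ltbp1 and 6.77 for Ltbp3. After sham surgery the 4 stood at 7.25, 7.09, 4.03 and 3.79 RPKM in the same order. Of 6 fibroblast and tendon markers 3 were called higher (2.98% of all genes tested). Their summed level was 213 and 238 CPM after ovariectomy and 35.8 and 64.6 CPM after sham surgery, with none at 0. Of 7 pericyte and smooth muscle markers 3 were called higher (2.98% of all genes tested), with a sum of 610 and 684 CPM against 341 and 367 CPM. In that sum Rgs5 alone had 295 and 361 CPM after ovariectomy and 5.66 and 46.4 CPM after sham surgery. Cspg4 was lower in both ovariectomy libraries, at 214 and 222 CPM against 284 and 266 CPM. The part of these fibroblast and pericyte markers in the Ltbp values was not tested.

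**Figure D2:**
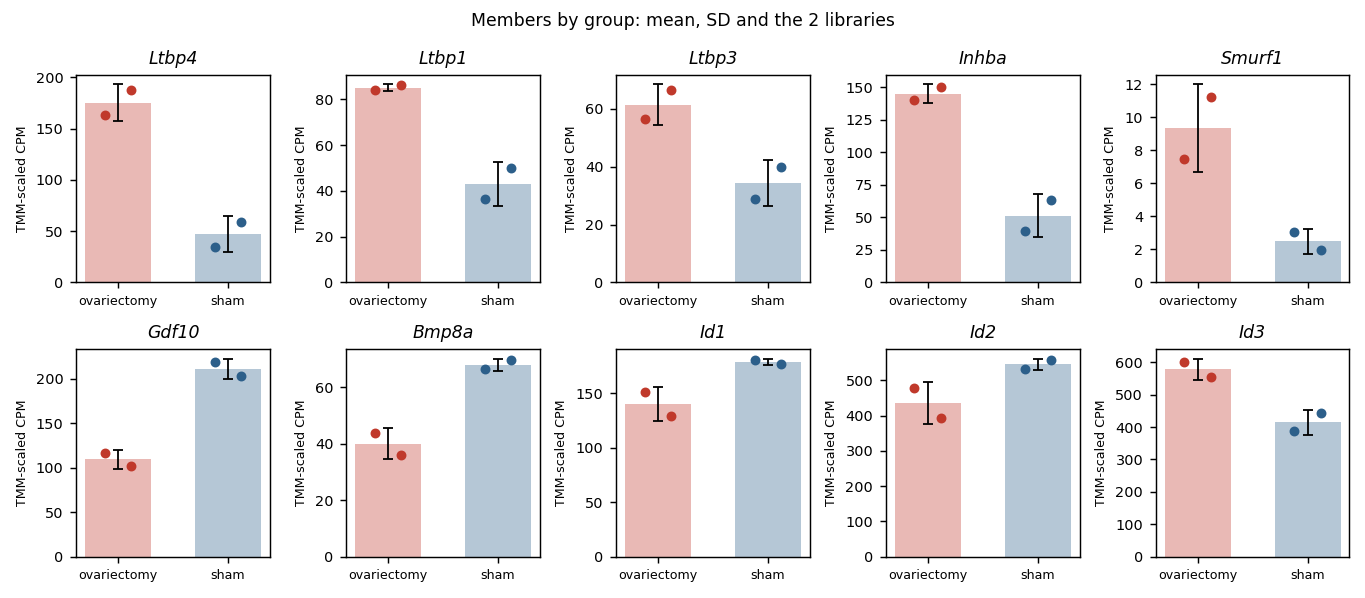
TMM-scaled CPM of 10 members, ovariectomy on the left and sham on the right of each panel. Bars are means, lines the SD of 2 libraries and points the libraries. Ltbp4, Ltbp1, Ltbp3, Inhba, Smurf1 and Id3 stood higher in both ovariectomy libraries, and Gdf10, Bmp8a, Id1 and Id2 lower. Ltbp3 and the Id genes did not pass the test.

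Among the ligands, the activin subunit Inhba rose and the BMP-type ligands Gdf10 and Bmp8a fell. Inhba encodes the beta A subunit, whose dimer is activin A. It had 140 and 150 CPM after ovariectomy and 39.5 and 63.0 CPM after sham surgery, with a clear gap between the groups. The rise was 2.83-fold (log2 fold change 1.5 ± 0.22 SE, edgeR adjusted p = 0.0120). With 1 library left out it ran between 1.21 and 1.89 on the log2 scale. The other subunit gene, Inhbb, was low, with 116 and 50 counts after ovariectomy and 21 and 56 counts after sham surgery (edgeR adjusted p = 0.417). Inhba lies on chromosome 13, 16011851 to 16031621, plus strand.

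Gdf10 (BMP-3b), a close relative of Bmp3, which in mice restrains bone density, had 117 and 102 CPM after ovariectomy and 219 and 203 CPM after sham surgery. Each pair was tight and the groups lay far apart. It fell 1.93-fold (log2 fold change -0.95 ± 0.13 SE, edgeR adjusted p = 0.00982). With 1 library left out the log2 fold change lay between -1.03 and -0.84. Gdf10 lies on chromosome 14, 33923587 to 33937983, plus strand. Bmp8a, a BMP of bone and germ cells in mice, had 43.9 and 36.1 CPM after ovariectomy and 66.5 and 69.5 CPM after sham surgery. It fell 1.70-fold (log2 fold change -0.76 ± 0.15 SE, edgeR adjusted p = 0.0398). Its near-identical neighbour gene Bmp8b had 0 and 2 counts after ovariectomy and 0 and 0 after sham surgery, and counting could split reads between the pair. All 6 chondrocyte markers were lower in both ovariectomy libraries and 5 were called lower (23.9% and 1.20% of all genes tested). Their sum was 58000 and 52800 CPM after ovariectomy and 98700 and 90800 CPM after sham surgery. Their part in the Gdf10 and Bmp8a values was not tested.

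The remaining 13 ligands did not pass in the edgeR test. Bmp4, a driver of skeletal progenitor commitment, had 20 and 27.3 CPM after ovariectomy and 11.3 and 11.8 CPM after sham surgery. The groups did not overlap (log2 fold change 1.03 ± 0.23 SE, edgeR adjusted p = 0.0589). Bmp4 was called in 6 of the 9 other settings (adjusted p between 0.00124 and 0.0641 over the 9). Bmp7 had 72.8 and 61.3 CPM after ovariectomy and 102 and 86.6 CPM after sham surgery (edgeR adjusted p = 0.139). Bmp5 had 13.6 and 14.4 CPM against 23.5 and 19.2 CPM (edgeR adjusted p = 0.178), and it shares 46.7% of its exon length with another annotated gene. Bmp3 had 49.9 and 47.9 CPM after ovariectomy and 50.8 and 63.8 CPM after sham surgery (edgeR adjusted p = 0.533).

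None of the 3 TGF-beta isoforms passed the edgeR test (2 at an unadjusted p under 0.05, and 0 called by the DESeq2 test or limma-voom). In edgeR, 3154 of all 17120 genes tested had an unadjusted p under 0.05. Tgfb2 had 135 and 133 CPM after ovariectomy and 175 and 165 CPM after sham surgery (log2 fold change -0.34 ± 0.12 SE, edgeR adjusted p = 0.171). Tgfb3 had 124 and 111 CPM after ovariectomy and 153 and 138 CPM after sham surgery (-0.30 ± 0.13 SE, edgeR adjusted p = 0.269). Both were lower in both ovariectomy libraries, without passing. Tgfb1, the isoform most stored in bone matrix, had 20 and 23.6 CPM after ovariectomy and 13.0 and 20.3 CPM after sham surgery, and the groups overlapped. Over all 16 ligands the median log2 fold change was -0.26, with 3 higher and 7 lower in both ovariectomy libraries (25.5% and 23.9% of all genes tested). The summed level was 898 and 884 CPM against 1000 and 1090 CPM.

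By level per kilobase over all libraries, the leading ligands were Bmp2 (43.0 RPKM), Tgfb3 (38.9), Gdf10 (30.8), Tgfb2 (26.3), Bmp8a (22.5), Bmp7 (20.1) and Inhba (15.4). The lead of Bmp2 rests in part on 1 library, since it had 134 and 142 CPM after ovariectomy and 134 and 202 CPM after sham surgery. After ovariectomy Inhba, at 22.7 RPKM, lay above Gdf10 at 21 and Bmp8a at 16.6 RPKM. After sham surgery Inhba was at 8.02 RPKM, Gdf10 at 40.5 and Bmp8a at 28.3 RPKM. Gdf11, Inhbb and Gdf5 stood at the low end, at 0.621, 0.642 and 1.31 RPKM.

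**Figure D3:**
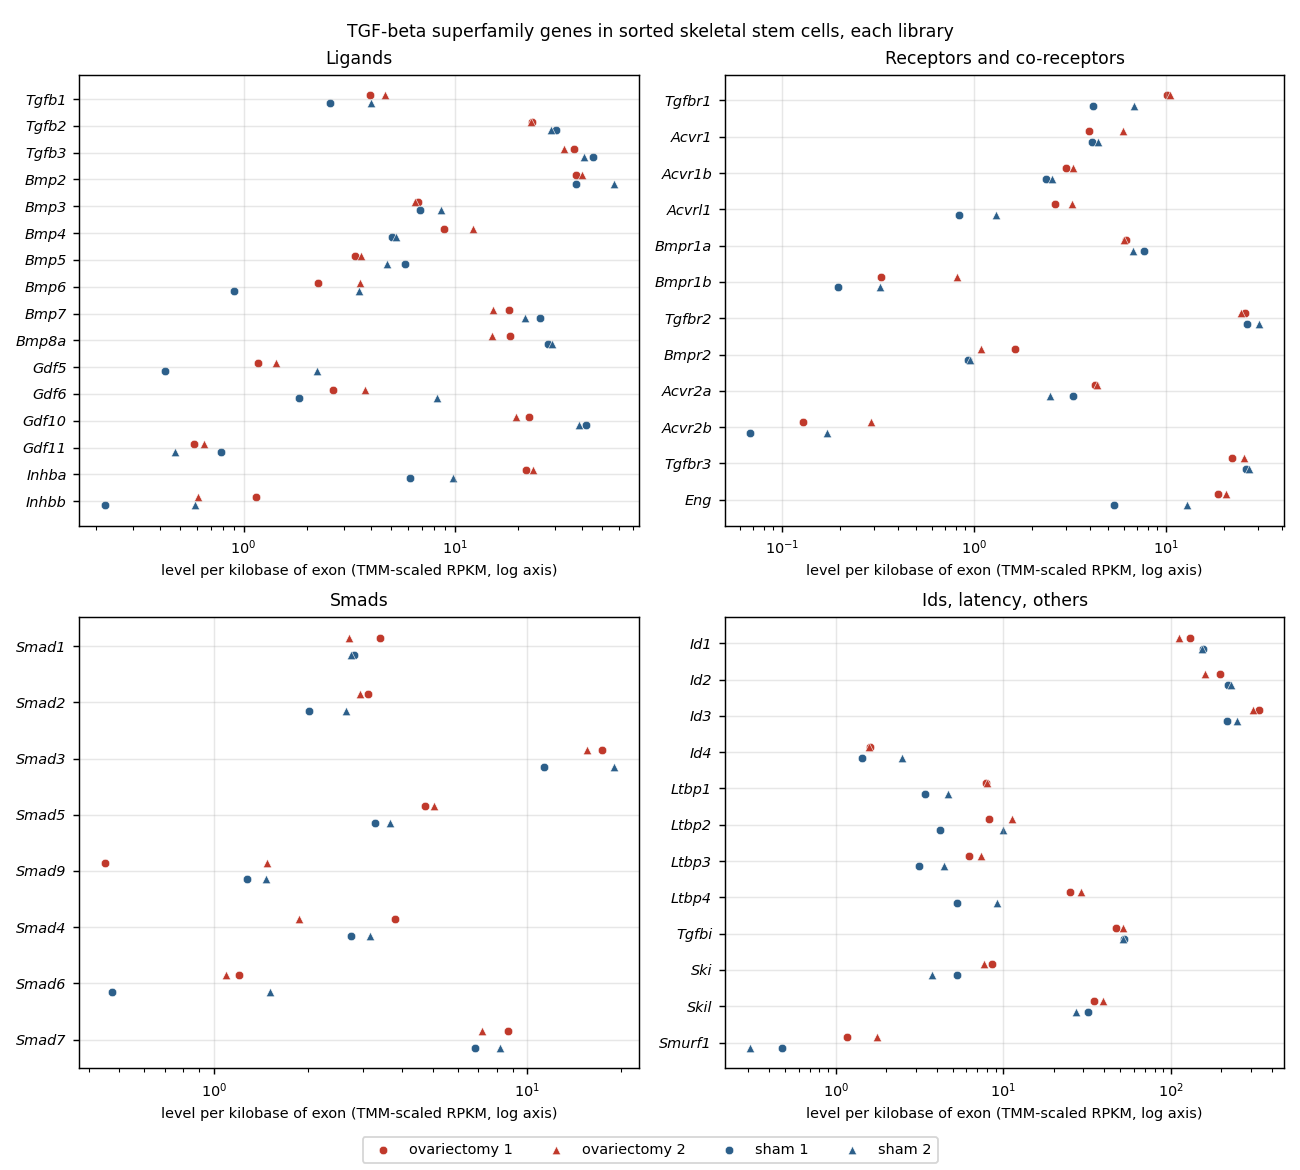
Level of each gene per kilobase of exon (TMM-scaled RPKM, log axis) in the 4 libraries, by role. Red marks are ovariectomy and blue marks sham libraries, circles library 1 and triangles library 2. The Id genes Id1, Id2 and Id3 were the most abundant members, and Ltbp4 and Inhba show wide gaps between the groups.

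Of the receptors and co-receptors, edgeR called 0 of 12 (4 at an unadjusted p under 0.05), the DESeq2 test 2 and limma-voom 3. Over all 17120 genes tested, 3154 had an unadjusted p under 0.05 in edgeR, and DESeq2 called 8.21% and limma-voom 5.53%. Of the 12, 7 were higher and 3 lower in both ovariectomy libraries, where 25.5% and 23.9% of all genes tested were, and the median log2 fold change was 0.57. Tgfbr1 (ALK5), the type 1 receptor of TGF-beta, had 66.3 and 68.8 CPM after ovariectomy and 27.0 and 44.3 CPM after sham surgery. Its groups lay apart (log2 fold change 0.92 ± 0.23 SE, edgeR adjusted p = 0.0789, DESeq2 adjusted p = 0.00204, limma-voom 0.0283). The paired type 2 receptor, Tgfbr2, had 210 and 202 CPM after ovariectomy and 216 and 248 CPM after sham surgery (-0.18 ± 0.12 SE, edgeR adjusted p = 0.530).

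Acvrl1 (ALK1), a type 1 receptor best known from endothelium, had 11.2 and 13.8 CPM after ovariectomy and 3.57 and 5.57 CPM after sham surgery (log2 fold change 1.45 ± 0.33 SE, edgeR adjusted p = 0.0583, DESeq2 adjusted p = 0.00951). Eng (endoglin, CD105), its co-receptor and an antigen of the sort, had 75.2 and 83.1 CPM after ovariectomy and 21.6 and 52.1 CPM after sham surgery (edgeR adjusted p = 0.150). The sham libraries themselves differed, and the log2 fold change of Eng was 0.60 without sham 1 and 1.89 without sham 2. Eng was called in 4 of the 9 other settings, among them limma-voom (adjusted p = 0.0471), but not by the DESeq2 test (adjusted p = 0.345). Of 8 endothelial markers edgeR called 0 (1 at an unadjusted p under 0.05, as were 3154 of all 17120 genes tested). In both ovariectomy libraries 4 of the 8 were higher, where 25.5% of all genes tested were. The sum was 44.0 and 63.4 CPM after ovariectomy and 10.5 and 44.1 CPM after sham surgery, and Cdh5 and Emcn had 0 counts in sham 1. Their part in the Eng and Acvrl1 values was not tested.

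The other receptors did not pass in the edgeR, DESeq2 or limma-voom test. Bmpr1a, the main type 1 BMP receptor of cartilage and bone, had 39.3 and 38.1 CPM after ovariectomy and 48.8 and 42.5 CPM after sham surgery (edgeR adjusted p = 0.483). Acvr2a, a type 2 receptor of activins and BMPs, had 24.4 and 24.9 CPM after ovariectomy and 18.6 and 14.0 CPM after sham surgery (edgeR adjusted p = 0.189). Bmpr2 had 29.3 and 19.6 CPM against 16.6 and 17.1 CPM (edgeR adjusted p = 0.293). Acvr1 (ALK2) and Acvr1b (ALK4), type 1 receptors of BMPs and activins, had log2 fold changes of 0.22 ± 0.24 SE and 0.36 ± 0.23 SE. Bmpr1b and Acvr2b were low, at 0.413 and 0.165 RPKM over all libraries. Tgfbr3 (betaglycan), which presents TGF-beta2 to its receptors, had 144 and 165 CPM after ovariectomy and 170 and 176 CPM after sham surgery (edgeR adjusted p = 0.571). Per kilobase, Tgfbr2 (26.7 RPKM), Tgfbr3 (25.0) and Eng (14.3) led the receptors, above Tgfbr1 (7.89) and Bmpr1a (6.64).

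Among the Smads, edgeR called 0 of 8 (1 at an unadjusted p under 0.05), as did the DESeq2 test and limma-voom. An unadjusted p under 0.05 in edgeR was reached by 3154 of all 17120 genes tested. The groups overlapped for 6 of 8, so that 25% did not overlap, against 49.3% of all genes tested. Smad3, the most abundant at 15.8 RPKM, had 96.4 and 86.0 CPM after ovariectomy and 62.8 and 104 CPM after sham surgery. Smad5, a BMP-responsive Smad, had 35.1 and 37.5 CPM after ovariectomy and 24.3 and 27.0 CPM after sham surgery (log2 fold change 0.50 ± 0.16 SE, edgeR adjusted p = 0.155). Smad4, the partner of every signalling Smad, had 14.1 and 6.96 CPM against 10.2 and 11.7 CPM. Smad7, an inhibitor induced by the pathway itself, had 39.3 and 32.4 CPM after ovariectomy and 30.9 and 37.0 CPM after sham surgery. Smad6 was low and split the sham pair, with 3.85 and 3.48 CPM after ovariectomy and 1.52 and 4.85 CPM after sham surgery. Smad2 had 27.2 and 25.8 CPM after ovariectomy and 17.7 and 23.3 CPM after sham surgery (edgeR adjusted p = 0.403). Smad1 and Smad9, both BMP-responsive, had log2 fold changes of 0.14 ± 0.21 SE and -0.52 ± 0.53 SE. Smad9 was low in ovariectomy 1 alone, at 2.41 CPM, where the other libraries had 6.87 to 7.95 CPM. Over the 8 Smads the SE ran from 0.16 to 0.59 log2 units, which is the precision that 2 libraries a group gave.

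Smurf1, a ligase that marks BMP Smads and receptors for degradation and restrains bone formation in mice, had 7.44 and 11.2 CPM after ovariectomy and 3.03 and 1.96 CPM after sham surgery. It rose 3.72-fold from a low level (log2 fold change 1.89 ± 0.39 SE, edgeR adjusted p = 0.0453), on 176 and 215 counts after ovariectomy and 68 and 44 counts after sham surgery. Smurf1 lies on chromosome 5, 144876495 to 144965847, minus strand. The corepressors Ski and Skil, which bind Smads and block transcription, were higher in both ovariectomy libraries without passing. Ski had 47.5 and 42.9 CPM after ovariectomy and 29.6 and 20.8 CPM after sham surgery (edgeR adjusted p = 0.0732, called in 6 of the 9 other settings). Skil had 339 and 383 CPM after ovariectomy and 311 and 264 CPM after sham surgery (edgeR adjusted p = 0.236).

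The Id genes, direct BMP targets whose proteins block basic helix-loop-helix factors, were the most abundant members, at 277 RPKM for Id3, 201 for Id2 and 138 for Id1. Their differences had both signs. Id3 had 601 and 555 CPM after ovariectomy and 387 and 442 CPM after sham surgery (log2 fold change 0.48 ± 0.12 SE, edgeR adjusted p = 0.0751, DESeq2 adjusted p = 0.00185). Id1 had 151 and 129 CPM after ovariectomy and 181 and 177 CPM after sham surgery (-0.35 ± 0.13 SE, edgeR adjusted p = 0.195). Id2 had 477 and 393 CPM after ovariectomy and 533 and 556 CPM after sham surgery (-0.32 ± 0.13 SE, edgeR adjusted p = 0.228). Id3 lay above and Id1 and Id2 below in both ovariectomy libraries, where 25.5% and 23.9% of all genes tested lay so. Of the 4 Id genes edgeR called 0 (3 at an unadjusted p under 0.05), while the DESeq2 test and limma-voom called Id3. An unadjusted p under 0.05 in edgeR was found for 3154 of all 17120 genes tested. Id4 was low, at 1.77 RPKM, and its groups overlapped. Tgfbi, a matrix protein named for its induction by TGF-beta, had 177 and 195 CPM after ovariectomy and 200 and 196 CPM after sham surgery (edgeR adjusted p = 0.789).

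The sham pair was the less even pair in this set. Sham 2 lay above sham 1 for 34 of 48 members, and ovariectomy 2 above ovariectomy 1 for 27. The libraries were at least 2-fold apart for 4 members in the ovariectomy pair and for 8 in the sham pair. These counts were not made over all genes, so whether the unevenness is particular to the set was not tested. Gdf5, a joint ligand, had 2.71 and 3.32 CPM after ovariectomy and 0.981 and 5.16 CPM after sham surgery, and it shares 40.3% of its exon length with another annotated gene. Gdf6, also of joints, had 9.39 and 13.2 CPM after ovariectomy and 6.51 and 29.0 CPM after sham surgery. Bmp6 had 8.75 and 13.9 CPM after ovariectomy and 3.52 and 13.8 CPM after sham surgery. In these genes the value after sham surgery rests on which library is read.

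**Figure D4:**
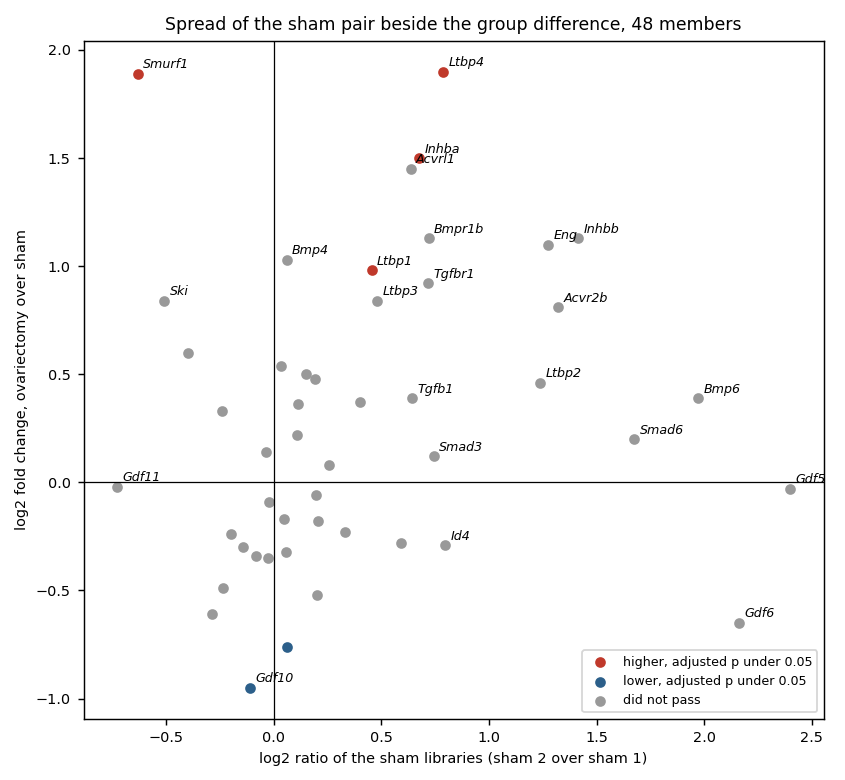
Log2 ratio of the sham libraries (sham 2 over sham 1, x axis) against the log2 fold change, ovariectomy over sham (y axis), 1 point a gene. Gdf5, Gdf6, Bmp6, Smad6, Inhbb, Acvr2b, Eng and Ltbp2 lie at or beyond 1 on the x axis, and the 6 called genes between -0.63 and 0.79. Both axes use the sham libraries, so the points share them.

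The promoters of the 6 called genes were read for 3 Smad motifs on both strands, in RefSeq windows (GRCm38.p6) of 300 bases, from 250 before to 50 after each annotated start. The motifs were GGCGCC, a BMP-responsive Smad motif, GTCTAGAC, the palindromic Smad-binding element, and CAGACA, the CAGA box. The first 2 are their own reverse complement. All 6 genes had a window, 9 in all, and 4 genes held a match. GGCGCC stood in the Gdf10 window and in 2 overlapping windows of Ltbp4 out of 3, and in 11.9% of all 32851 windows. CAGACA, here as its reverse complement TGTCTG, stood in the Smurf1 window and at 2 places in 1 of the 2 Ltbp1 windows, and in 21% of all windows. GTCTAGAC, found in 0.213% of all windows, was in none of the 9, nor was any of the 3 motifs in the Inhba or Bmp8a window. No motif stood in a window of all 4 genes that rose. The matches in Ltbp4 and Ltbp1 lay in windows at annotated starts inside the gene, and the window at the outermost start of each held none. Counts by gene do not tell which start was used. A match is a description of the letters, not a bound site.

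The windows that held a match are given 5′ to 3′ in gene orientation, with the match in capitals, to show where it lies in the promoters of genes that rose (Ltbp4, Ltbp1, Smurf1) and of a gene that fell (Gdf10). They lie at chr7:27333599-27333898 (minus strand, the first of the overlapping pair), chr17:75178531-75178830 (plus strand), chr5:144965781-144966080 (minus strand) and chr14:33923337-33923636 (plus strand).
Ltbp4: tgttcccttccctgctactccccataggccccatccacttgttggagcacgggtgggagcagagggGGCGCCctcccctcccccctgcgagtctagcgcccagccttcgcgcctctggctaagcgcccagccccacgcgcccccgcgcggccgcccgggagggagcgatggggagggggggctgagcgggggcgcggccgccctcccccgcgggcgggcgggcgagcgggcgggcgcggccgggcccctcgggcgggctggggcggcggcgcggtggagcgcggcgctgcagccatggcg
Ltbp1: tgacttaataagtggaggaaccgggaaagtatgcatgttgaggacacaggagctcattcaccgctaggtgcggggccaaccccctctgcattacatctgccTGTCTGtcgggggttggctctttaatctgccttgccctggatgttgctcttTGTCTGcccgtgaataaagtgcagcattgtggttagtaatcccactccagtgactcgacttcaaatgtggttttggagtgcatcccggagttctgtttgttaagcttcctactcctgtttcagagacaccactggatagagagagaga
Smurf1: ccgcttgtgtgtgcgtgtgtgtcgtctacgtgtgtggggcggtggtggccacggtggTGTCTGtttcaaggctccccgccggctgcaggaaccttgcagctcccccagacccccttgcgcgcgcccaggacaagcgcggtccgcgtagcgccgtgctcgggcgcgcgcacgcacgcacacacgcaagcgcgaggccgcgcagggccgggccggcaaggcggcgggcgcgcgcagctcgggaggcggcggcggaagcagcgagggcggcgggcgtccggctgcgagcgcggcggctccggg
Gdf10: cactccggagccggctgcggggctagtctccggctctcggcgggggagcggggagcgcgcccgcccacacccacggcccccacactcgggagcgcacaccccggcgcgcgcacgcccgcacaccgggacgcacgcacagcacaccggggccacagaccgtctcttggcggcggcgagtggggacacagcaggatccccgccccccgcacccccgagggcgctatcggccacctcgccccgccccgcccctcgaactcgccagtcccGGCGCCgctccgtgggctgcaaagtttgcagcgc

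The match began 184 bases before the start in this Ltbp4 window, at 149 and 98 bases before it in Ltbp1, and at 193 bases before it in Smurf1. In Gdf10 it began 16 bases after the start.

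Other genes of the pathway, from 7 lists, were read in the same fit. Among 17 genes that release or anchor latent TGF-beta, 15 were tested, and 2 rose and 2 fell (2.98% and 1.20% of all genes tested). Itgb8, the integrin subunit that frees TGF-beta from its latent complex, had 12.4 and 12.9 CPM after ovariectomy and 0.268 and 1.51 CPM after sham surgery. Its counts were 294 and 249 after ovariectomy and 6 and 34 after sham surgery. The rise was 14.1-fold (log2 fold change 3.82 ± 0.64 SE, edgeR adjusted p = 0.0207). It spanned 3.06 to 5.55 on the log2 scale when 1 library was left out. Itgav, its partner subunit, is given above among the sort antigens (edgeR adjusted p = 0.942). Fn1 (fibronectin), to which Ltbp1 is anchored, had 9710 and 11300 CPM after ovariectomy and 5950 and 7160 CPM after sham surgery and rose 1.60-fold (edgeR adjusted p = 0.0242).

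In the same list Thbs1 (thrombospondin-1), an activator of latent TGF-beta, had 529 and 533 CPM after ovariectomy and 913 and 903 CPM after sham surgery. It fell 1.71-fold (log2 fold change -0.77 ± 0.10 SE, edgeR adjusted p = 0.00800). Mmp9, a protease of osteoclasts and hypertrophic cartilage that can also release TGF-beta, had 17.6 and 23.8 CPM after ovariectomy and 47.6 and 106 CPM after sham surgery. It fell 3.72-fold (edgeR adjusted p = 0.0341), with a log2 fold change of -2.36 without sham 1 and -1.19 without sham 2. The list thus held called genes in both directions, with a median log2 fold change of 0.40.

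**Figure D5:**
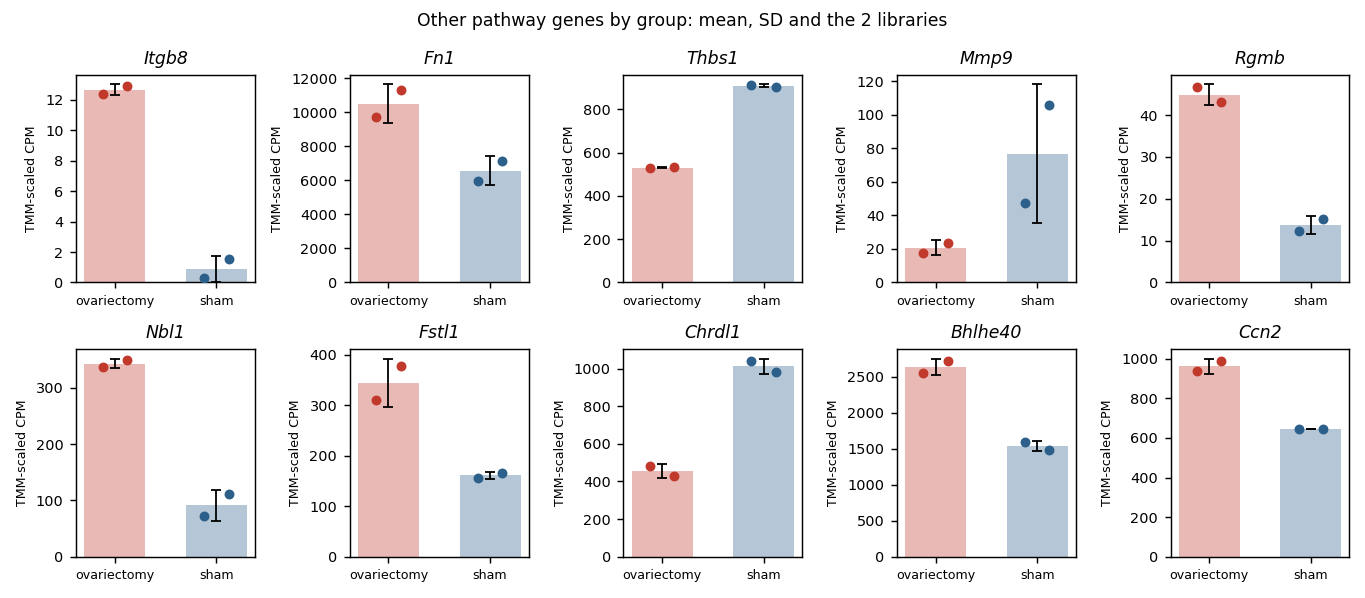
TMM-scaled CPM of 10 other pathway genes, ovariectomy on the left and sham on the right of each panel. Bars are means, lines the SD of 2 libraries and points the libraries. Itgb8, Fn1, Rgmb, Nbl1, Fstl1, Bhlhe40 and Ccn2 rose and Thbs1, Mmp9 and Chrdl1 fell.

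Of 19 target genes of TGF-beta and activin, all tested, 5 rose and 0 fell, where 2.98% of all genes tested rose and 1.20% fell. The median log2 fold change was 0.33. The list was chosen with earlier results of these data known, so its counts are a description and no independent support. Fibroblast and tendon markers were called higher for 3 of 6, among them Dpt (6.56-fold) and Cd34 (3.69-fold). Skeletal stem and stromal markers were called higher for 4 of 7, among them Pdgfra (2.96-fold), and lower for 1 (Cd200). Pericyte and smooth muscle markers were called higher for 3 of 7, and Cspg4 was lower in both ovariectomy libraries. The part of these markers in the target values was not tested. Skil and Smad7 stand in this list and in the set of 48. Bhlhe40, a transcriptional repressor, had 2560 and 2720 CPM after ovariectomy and 1590 and 1490 CPM after sham surgery (1.72-fold higher, edgeR adjusted p = 0.00692). Ccn2 (CTGF), a matricellular protein, had 936 and 989 CPM after ovariectomy and 644 and 643 CPM after sham surgery (1.49-fold, edgeR adjusted p = 0.0228), and it shares 23.2% of its exon length with another annotated gene. Fn1, given above, is the third, and Acta2, smooth muscle actin and also a pericyte marker, rose 2.83-fold to 39.3 and 21.1 CPM after ovariectomy, against 10.5 and 10.9 CPM after sham surgery (edgeR adjusted p = 0.0418).

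Of 17 BMP target genes, 16 were tested, 1 rose and 2 fell (2.98% and 1.20% of all genes tested). The median log2 fold change was -0.16. The list includes Id1, Id2, Id3, Smad6 and Smad7 of the set. Sp7 (osterix), a transcription factor required for osteoblasts, had 131 and 111 CPM after ovariectomy and 237 and 237 CPM after sham surgery (1.96-fold lower, edgeR adjusted p = 0.00893). Dlx5, a homeobox factor of osteoblasts, had 39.5 and 32.3 CPM after ovariectomy and 80.3 and 66.6 CPM after sham surgery (2.04-fold lower, edgeR adjusted p = 0.0192). Dlx3, of the same family, had 45.1 and 47.0 CPM after ovariectomy and 13.8 and 24.7 CPM after sham surgery (2.39-fold higher, edgeR adjusted p = 0.0485). Of 6 osteoblast markers, which include Sp7, 4 were called lower (1.20% of all genes tested). The 6 summed to 74300 and 68200 CPM after ovariectomy and 83700 and 113000 CPM after sham surgery. In that sum Col1a1 alone had 61100 and 57200 CPM against 62500 and 88700 CPM (edgeR adjusted p = 0.258). Bglap overlapped between the groups (edgeR adjusted p = 0.65). The part of these osteoblast markers in the BMP target values was not tested.

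Of 20 antagonists, 18 were tested, 2 rose and 1 fell (2.98% and 1.20% of all genes tested). Nbl1 (DAN), a BMP antagonist, had 337 and 349 CPM after ovariectomy and 71.6 and 111 CPM after sham surgery and rose 3.75-fold (edgeR adjusted p = 0.00482). Fstl1, a follistatin-like protein, had 310 and 378 CPM after ovariectomy and 156 and 166 CPM after sham surgery and rose 2.14-fold (edgeR adjusted p = 0.00697). Chrdl1, a chordin-like BMP antagonist, had 482 and 429 CPM after ovariectomy and 1040 and 982 CPM after sham surgery and fell 2.22-fold (edgeR adjusted p = 0.00428). Fst (follistatin), the inhibitor of activin, had 4.31 and 5.82 CPM after ovariectomy and 1.92 and 2.94 CPM after sham surgery (edgeR adjusted p = 0.257). It was named after its values were seen, for its link to Inhba.

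Of the other receptors and co-receptors, 7 of 9 were tested, 1 rose and 0 fell (2.98% and 1.20% of all genes tested). Rgmb (Dragon), a membrane-anchored BMP co-receptor, had 46.6 and 43.1 CPM after ovariectomy and 12.3 and 15.2 CPM after sham surgery and rose 3.26-fold (log2 fold change 1.71 ± 0.19 SE, edgeR adjusted p = 0.00482). Of 19 intracellular regulators, 18 were tested, 0 rose and 1 fell (5.56% called, against 4.18% of all genes tested). Wwp2, a ubiquitin ligase gene of cartilage that hosts the microRNA gene Mir140, had 460 and 413 CPM after ovariectomy and 819 and 714 CPM after sham surgery and fell 1.76-fold (edgeR adjusted p = 0.0132). Among 17 other ligand genes, a list that also held the procollagen protease gene Bmp1, 7 were tested. EdgeR called 0 of 7 (2 at an unadjusted p under 0.05), the DESeq2 test 2 and limma-voom 1. Over all 17120 genes tested, 3154 had an unadjusted p under 0.05 in edgeR, and DESeq2 called 8.21% and limma-voom 5.53%. Gdf15, a stress-induced ligand, had 16.1 and 17.1 CPM after ovariectomy and 8.47 and 6.32 CPM after sham surgery (edgeR adjusted p = 0.0545). Gdf3 had 19 and 21 counts after ovariectomy and 0 and 0 counts after sham surgery (edgeR adjusted p = 0.0847).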

How the data were processed

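The 4 libraries share 1 table of raw read counts by Ensembl gene ID, deposited by the authors with no scaling. The submitters' processing notes name Trim Galore 0.6.6, featureCounts 2.0.1 and the build GRCm38 (mm10). An aligner, an annotation release and a strand setting are not given there, so reads of overlapping genes cannot be told apart. Per the labels' protocols, RNA was extracted with TRIzol and a SMARTER mRNA kit made the libraries.

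Gene names, positions and exon lengths came from GENCODE M21 (GRCm38), which matched 55227 of 55487 IDs. Genes were kept by filterByExpr (17120 genes), scaled by TMM and compared in edgeR 4.0.16 (R 4.3.3) by its two-sided quasi-likelihood test, with group alone in the model. The threshold was a Benjamini-Hochberg adjusted p of 0.05 over all genes tested. SEs were derived as the absolute log2 fold change over the root of the F statistic. The common biological coefficient of variation was 0.317. A count is worth between 0.0423 and 0.0519 CPM. RPKM divides TMM-scaled CPM by exon length in kilobases. The test was tried on simulated data.

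Named genes were every called member, in each role class the 2 members with the highest RPKM and the one with the smallest p, and up to 4 called genes of each other list by smallest p (2 where none was called). Members given beyond that rule show the range of their class and were chosen after their values were seen. The values of 1 gene of the other lists are not reported here. The members and lists were chosen with earlier results of these data known. Alternatives were other scalings, a GC and length offset, other filters, DESeq2 1.42.0, limma-voom (limma 3.58.1), the replicate number as a block and each library left out.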

Additional observations from a re-analysis of the deposited data

How the results depend on the processing

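Each group had 2 libraries, and low counts (68 and 44 for Smurf1 after sham surgery) also limit precision. The 6 calls among the 48 genes (4 higher, 2 lower) were made under all 9 alternatives that kept every library. The number of members called higher was 10 with library totals alone, 11 with no filter, 11 with a mean of at least 5 CPM, 10 by DESeq2 and 11 by limma-voom, and 0 to 12 with 1 library left out. Members called lower numbered 0 to 4 with 1 library left out. Over all genes, calls higher were 1112 with no filter and 923 by DESeq2, against 510, and 0 to 1277 with 1 library left out. Calls lower were 544 with no filter, 406 with a mean of at least 5 CPM, 483 by DESeq2 and 313 by limma-voom, against 206, and 0 to 558 with 1 library left out. The cause was not tested. Library totals alone moved the median gene by 0.11 on the log2 scale, and 82.1% of calls were then higher, against 71.2%.

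The replicate numbers were not shown to pair the libraries (correlation of deviations 0.00337). With the replicate block, 11 members were called higher, and 329 genes were called lower.

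The sign turned for Gdf5 (0.09 with library totals, 0.39 by limma-voom, 0.36 with the replicate block), Gdf11 (0.08, 0.02 and 0.02 in that order), and with library totals for Smad4 (0.04) and Tgfbi (0.02). With 1 library left out, log2 fold changes spanned -0.54 to 0.06 for Bmp2, -0.29 to 1.69 for Bmp6, -0.77 to 1.62 for Gdf5, -1.36 to 0.81 for Gdf6, -0.33 to 0.39 for Gdf11, -0.09 to 0.51 for Acvr1, -0.02 to 0.31 for Smad1, -0.19 to 0.55 for Smad3, -1.60 to 0.13 for Smad9, -0.64 to 0.38 for Smad4, -0.40 to 1.28 for Smad6, -0.05 to 0.23 for Smad7, -0.63 to 0.17 for Id4 and -0.02 to 1.22 for Ltbp2. None of these 14 genes was called with every library in the edgeR test.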
